A study of Mus musculus with 27 samples.

Results

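The enzymes described here are those of mitochondrial fatty acid beta-oxidation: the carnitine palmitoyltransferases Cpt1a, Cpt1b and Cpt2, the acyl-CoA dehydrogenases Acadvl, Acadl, Acadm and Acads, and both subunits of the mitochondrial trifunctional protein, Hadha and Hadhb. They were taken by gene symbol as the core enzymes of the pathway, 9 genes of the 24825 in the series. Of the 9, 8 had enough signal to be tested in every comparison, and Cpt1b did not.

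Polyadenylated RNA was sequenced from C2C12 cells, an established mouse myoblast line that fuses into myotubes when it differentiates. The cells had received, by pMXs retrovirus, a control vector, full-length NFIA (a transcription factor of the nuclear factor I family that drives brown and beige adipocyte differentiation) or the Δpro#3 mutant, which lacks a stretch of the proline-rich domain at the C-terminus of NFIA, both tagged with 3xFLAG. RNA was taken at day 0, before differentiation, and at day 7, the latter without or after 4 h with 10 µM forskolin, an activator of adenylyl cyclase, with 3 replicates in each of the 9 groups. Per the labels, all cells, controls included, were differentiated with insulin, T3, dexamethasone, isobutylmethylxanthine, indomethacin and the PPARγ agonist rosiglitazone, so every day 7 group carried the same hormone and agonist treatment. Expression is given in FPKM, the number of fragments scaled by gene length and library depth, which is a level per length. Nothing in the labels says that the replicates were separate cultures, so the p-values measure only the spread between these samples.

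Long-chain fatty acids enter mitochondria as carnitine esters: CPT1 on the outer membrane makes the ester, a translocase carries it across, and CPT2 on the inner membrane returns it to coenzyme A. In the matrix, acyl-CoA dehydrogenases of decreasing chain length preference take the first step of each round, and the trifunctional protein carries out the remaining steps for long chains. Many of these genes are known targets of PPAR receptors, and brown adipocytes and skeletal muscle both rely on the pathway for energy.

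In the mouse NCBIM37 assembly, which corresponds to the mm9 build of the files, the genes lie apart except for 1 pair. Cpt1a is at chr19:3323301-3385732, Cpt2 at chr4:107576586-107596215, Acadvl at chr11:69823685-69828913, Acadl at chr1:66877413-66909851, Acadm at chr3:153585321-153607596 and Acads at chr5:115560308-115569355. Hadha (chr5:30444841-30481702) and Hadhb (chr5:30481788-30511133) are transcribed away from each other, with 85 bases between the annotated starts. Those bases are shown because both subunits share them, on the plus strand at chr5:30481703-30481787 of NCBIM37. The 250 bases before the start of Acadm, Cpt2 and Acads, which had the largest rises with NFIA at day 7, follow from RefSeq (GRCm38.p6), each on the gene's own minus strand: Acadm at chr3:153944644-153944893, Cpt2 at chr4:107923590-107923839 and Acads at chr5:115119347-115119596. Capitals mark matches on either strand to AGGTCA, the core element of nuclear receptors, or to TTGGCA, an element of nuclear factor I.
Hadha-Hadhb: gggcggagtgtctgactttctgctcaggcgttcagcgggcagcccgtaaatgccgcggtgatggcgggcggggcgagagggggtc
Acadm: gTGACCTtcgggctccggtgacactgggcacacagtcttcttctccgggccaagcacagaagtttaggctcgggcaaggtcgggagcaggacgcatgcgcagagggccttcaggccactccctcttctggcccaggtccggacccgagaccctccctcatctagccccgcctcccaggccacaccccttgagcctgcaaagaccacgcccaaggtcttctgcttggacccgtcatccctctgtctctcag
Cpt2: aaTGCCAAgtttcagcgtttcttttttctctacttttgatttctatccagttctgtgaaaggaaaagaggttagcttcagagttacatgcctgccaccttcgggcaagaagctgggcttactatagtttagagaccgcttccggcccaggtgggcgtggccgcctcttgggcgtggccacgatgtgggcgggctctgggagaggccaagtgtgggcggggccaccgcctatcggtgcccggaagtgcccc
Acads: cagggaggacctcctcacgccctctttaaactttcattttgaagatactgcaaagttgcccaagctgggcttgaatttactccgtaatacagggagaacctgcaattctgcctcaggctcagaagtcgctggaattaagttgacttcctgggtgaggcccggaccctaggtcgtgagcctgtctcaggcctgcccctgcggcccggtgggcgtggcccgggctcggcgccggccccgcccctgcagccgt

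RefSeq gave a promoter for 8 of the 9 enzymes. AGGTCA occurred within the 250 bases before the start in 3 of these 8 (Cpt1a, Acadvl and Acadm), against 13.8% of 27025 promoters, and TTGGCA in 2 (Cpt1a and Cpt2), against 12.5%. The direct repeat of AGGTCA with 1 base between its copies, to which PPAR and RXR bind, the estrogen-related receptor element TCAAGGTCA, which overlaps AGGTCA, and the nuclear factor I palindrome (TTGGC and GCCAA with 5 bases between them) were each found in 0 of the 8. All were searched on both strands. Of all promoters, 0.0370% held the direct repeat, 0.366% the estrogen-related receptor element and 0.0407% the palindrome. The matches are a description of the letters in these windows only.

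The libraries held 9567769 to 27230965 fragments. Nfia itself was at 242, 482 and 539 FPKM in the mean of NFIA-expressing cells of day 0, day 7 and forskolin, and at 406, 413 and 294 FPKM in that of Δpro#3-expressing cells. It was at or below 0.253 FPKM in 6 of 6 control samples at day 7, with and without forskolin, and at 0.879, 7.35 and 0.175 FPKM in control samples at day 0. Leaving out replicate 2, the highest of these, did not change the number of enzymes called between constructs at day 0. Against the labelled myoblast identity, the summed FPKM of 10 myotube genes at day 7 lay between 11688 and 13662 in control cells, between 12705 and 13215 with the Δpro#3 mutant, and between 1865 and 2544 with NFIA. The summed FPKM of 8 adipocyte genes lay between 163 and 189 in control cells and between 12625 and 14018 with NFIA. For 5 brown adipocyte genes the sum lay between 27.7 and 36.5 in control cells, between 49.1 and 56.2 with NFIA and between 67.8 and 73.6 with the mutant. Ucp1, which is among the 5, had no signal in these groups. Of the 2 brown adipocyte genes tested for NFIA against control at day 7, 1 was higher and 1 lower (limma). With the Δpro#3 mutant at day 7, replicate 1 stood apart from replicates 2 and 3, at 1653 against 347 and 413 for the adipocyte sum, and so did replicate 1 with forskolin, at 438 against 119 and 159, so the counts of enzymes and of listed genes called in comparisons of the mutant with control at day 7, and of enzymes called in its other comparisons at that day, are also given without them. The endothelial sum stayed at or below 1.43 FPKM in all groups, and of 5 macrophage genes only Cd68, which other cells also express, was abundant enough to be tested.

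At day 7, all 8 tested beta-oxidation enzymes were higher in NFIA-expressing cells than in control cells, where 31.3% of the 12324 genes tested were higher (limma, adjusted p under 0.05). The median log2 change of the 8 was 1.04, against -0.08 for all genes tested. For 5 of the 8 the rise exceeded 2-fold, as it did for 9.59% of all genes, and for 3 (Acadm, Cpt2 and Acads) it exceeded 3-fold, against 4.87% of all genes. The samples of both groups did not overlap for any of the 8, with NFIA higher, as was the case for 33.1% of all genes. In bulk RNA a change in the share of cells that express a gene and a change in RNA per cell cannot be told apart, and the adipocyte and myotube sums above differed between the same groups. Their part in these rises was not tested.

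**Figure D1:**
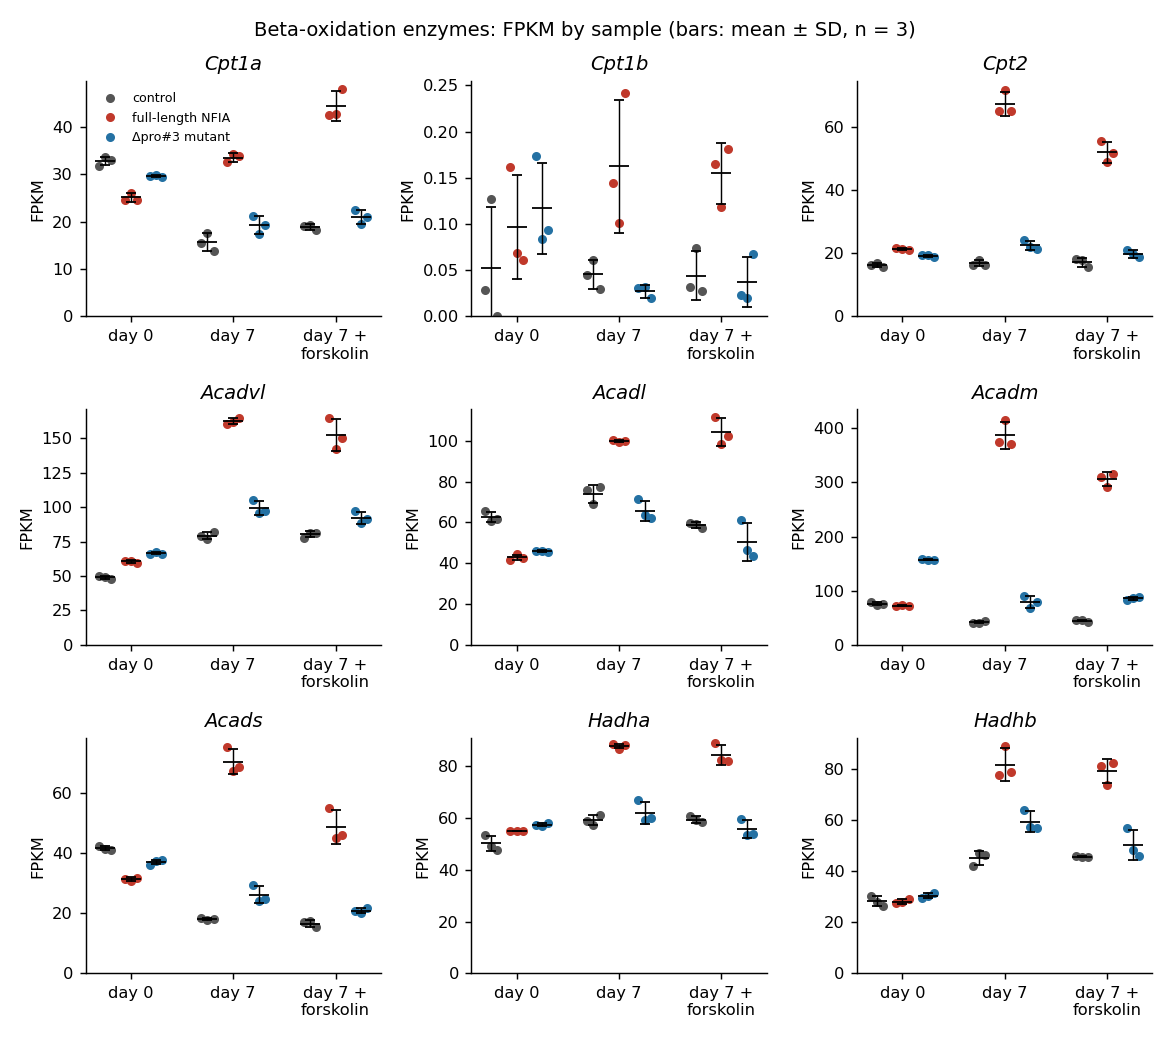
FPKM of each of the 9 beta-oxidation enzymes (vertical axes, each from 0) in every sample at day 0, day 7 and day 7 with forskolin, as points coloured by construct, with bars for the mean and SD of 3 replicates. For Acadm the 3 NFIA samples at day 7 sit between 372 and 416 FPKM and the control samples between 40.7 and 45.0 FPKM, while Cpt1b stays below 0.25 FPKM throughout.

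Of the carnitine shuttle, Cpt2, the inner membrane transferase, was at 16.2, 17.98 and 16.4 FPKM in the control samples of day 7 and at 64.9, 71.7 and 65.0 FPKM in the NFIA samples. The lowest NFIA sample lay far above the highest control sample, and the mean rose 3.99-fold, with a log2 change of 1.93 ± 0.07 (SE, n = 3 against 3, limma adjusted p = 2.95e-09). Cpt1a, the liver-type isoform of the outer membrane transferase, which takes the regulated step, was at 15.5, 17.6 and 13.8 FPKM in control and at 32.5, 34.2 and 33.7 FPKM in NFIA samples. Its log2 change of 1.06 ± 0.09 (limma adjusted p = 2.10e-06) was smaller than that of Cpt2, and its 95% interval of 0.86 to 1.26 lay below that of Cpt2, 1.78 to 2.08.

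Among the acyl-CoA dehydrogenases, the medium-chain enzyme Acadm changed the most. It was at 41.1, 40.7 and 45.0 FPKM in control samples and at 375, 416 and 372 FPKM in NFIA samples. The mean rose 9.16-fold, with a log2 change of 3.17 ± 0.09 (limma adjusted p = 1.28e-09). The short-chain enzyme Acads went from 18.6, 17.9 and 18.1 FPKM to 75.2, 67.3 and 68.6 FPKM, a log2 change of 1.89 ± 0.07 (limma adjusted p = 7.95e-09). With control vector it was the lowest of the 4 dehydrogenases in level, and with NFIA it remained below the other 3.

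The dehydrogenases for longer chains rose less. Acadvl, the very long-chain enzyme of the inner membrane, was at 79.2, 76.8 and 81.8 FPKM in control and at 160.3, 162 and 165 FPKM in NFIA samples, a log2 change of 1.02 ± 0.05 (limma adjusted p = 4.13e-08). Acadl, the long-chain enzyme, was at 76.0, 69.1 and 77.4 FPKM in control and at 100.3, 99.2 and 99.8 FPKM in NFIA samples. Its log2 change of 0.42 ± 0.06 (limma adjusted p = 0.000152) was the smallest among the 8. The intervals of Acadm, 2.95 to 3.38, and Acadl, 0.28 to 0.57, lay on opposite sides of those of Acads, 1.73 to 2.06, and Acadvl, 0.91 to 1.14.

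Both subunits of the trifunctional protein rose by less than 2-fold. The alpha subunit Hadha, which holds the hydratase and dehydrogenase activities, was at 59.0, 57.3 and 61.1 FPKM in control and at 88.5, 86.8 and 88.3 FPKM in NFIA samples, a log2 change of 0.56 ± 0.06 (limma adjusted p = 6.65e-06). The beta subunit Hadhb, the thiolase, was at 42.2, 47.2 and 46.6 FPKM in control and at 77.6, 89.2 and 78.9 FPKM in NFIA samples, a log2 change of 0.84 ± 0.07 (limma adjusted p = 2.58e-06). For neither subunit did the samples of the groups overlap. The pair that shares the 85 bases printed above thus rose in the same comparison, with 95% intervals of 0.44 to 0.69 for Hadha and 0.68 to 1.00 for Hadhb.

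**Figure D2:**
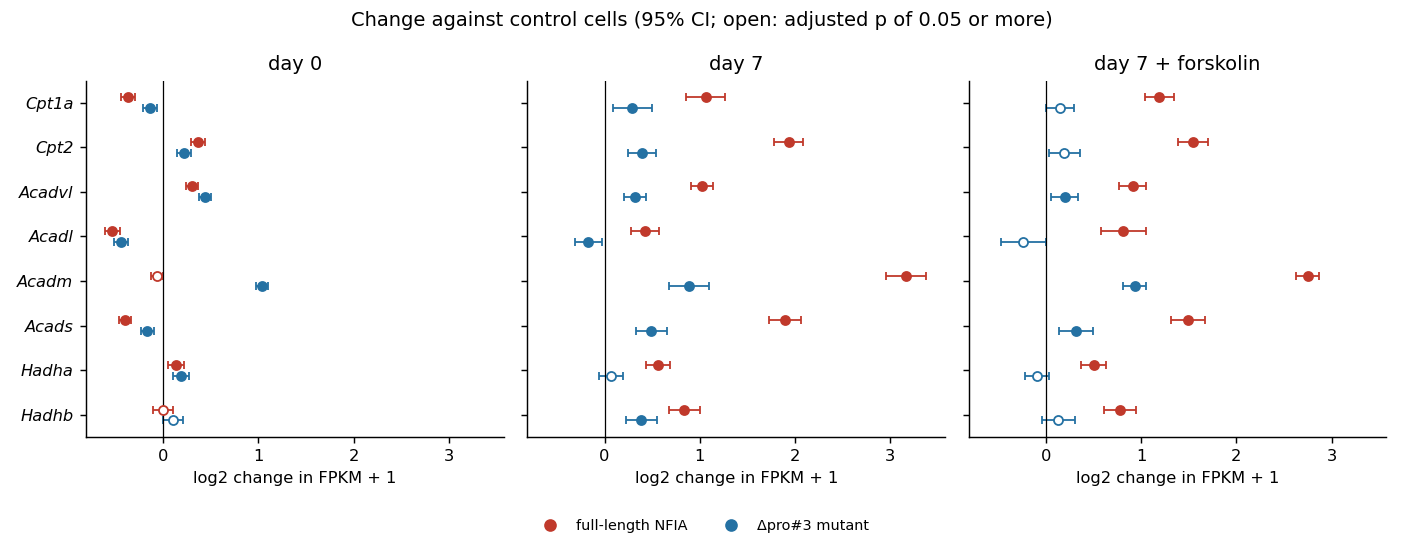
log2 change in FPKM + 1 against control cells (horizontal axes) for the 8 tested enzymes at day 0, day 7 and day 7 with forskolin, with full-length NFIA in red and the Δpro#3 mutant in blue. Bars are 95% confidence intervals from limma, and open points did not pass an adjusted p of 0.05. At day 7 the NFIA points run from 0.42 for Acadl to 3.17 for Acadm, and the mutant points from -0.17 to 0.89.

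With the Δpro#3 mutant at day 7, 6 of the 8 enzymes were higher than in control cells and 1 was lower, where 21.3% of all genes were higher and 27.5% lower (limma). The median log2 change of the 8 was 0.35, against -0.04 for all genes, and 0 of the 8 exceeded 2-fold, against 4.5% of all genes in either direction. When each sample was scaled by its median ratio, 6 of the 8 were higher and 0 lower, against 24.8% and 22.9% of all genes (limma). This comparison and the previous one share the control samples. Acadm was at 90.5, 68.3 and 79.4 FPKM with the mutant, above all control samples, with a log2 change of 0.89 ± 0.09 (limma adjusted p = 5.38e-05). The rises of Acads (0.49), Cpt2 (0.40), Hadhb (0.39), Acadvl (0.32) and Cpt1a (0.29) were smaller on the log2 scale, and the Cpt1a samples overlapped with control. Acadl was lower by a small margin, at 71.4, 63.5 and 62.2 FPKM, with overlapping samples and a log2 change of -0.17 ± 0.06 (limma adjusted p = 0.0456). This call of Acadl was lost in 7 of 9 fits that left out 1 sample (limma adjusted p = 0.0593 to 0.140). That of Cpt1a was lost without replicate 1 or replicate 3 of the control samples (limma adjusted p = 0.0571 and 0.0780). Hadha, at a log2 change of 0.07 (95% interval -0.06 to 0.19), did not pass.

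Replicate 1 of these mutant samples, which had the highest adipocyte sum, also had the highest value of all 8 enzymes in its group. Without it, 5 enzymes were higher and 1 lower than in control cells, the log2 change of Acadm was 0.79 and that of Cpt1a, at 0.22, no longer passed (limma adjusted p = 0.0700). The direction of all 8 stayed as it was. In the comparison with control 7 of 7 adipocyte genes were higher, all by over 2-fold, with a median log2 change of 1.80, and without replicate 1 all 7 were still higher, with a median of 1.09 (limma). Of 10 myotube genes 2 were higher and 4 lower, with a median of -0.14, and without replicate 1 the counts were the same, with a median of -0.08. Of 4 myoblast genes 3 were higher and 1 lower, with a median of 0.53, or 0.54 with the same counts without replicate 1. The myoblast sum lay between 960 and 1083 FPKM with the mutant and between 675 and 782 FPKM in control cells. The part of these markers in the enzyme changes was not tested.

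Set against full-length NFIA, the mutant gave lower values of all 8 enzymes at day 7, where 29.4% of all genes were lower (limma), with a median log2 difference of -0.74 against 0.03 for all genes. The samples did not overlap for any of them, as for 31.3% of all genes with the mutant lower. The difference was largest for Acadm (-2.28), followed by Cpt2 (-1.54) and Acads (-1.40), the 3 that exceeded 2-fold, as 6.95% of all genes did. It was smallest for Hadhb, at -0.45 ± 0.07 (limma adjusted p = 0.000345). Without replicate 1 of the mutant the difference of Acadm was -2.38, and all 8 remained lower. The 7 adipocyte genes were all lower and the 10 myotube genes all higher with the mutant than with NFIA, with median log2 differences of -4.38 and 2.69, and their part was not tested.

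At day 0 the enzymes moved in both directions. NFIA-expressing cells had 3 of the 8 higher (Cpt2, Acadvl and Hadha) and 3 lower (Cpt1a, Acadl and Acads) than control cells, where 73.3% of the 12105 genes tested differed in either direction (limma), and 0 of the 8 exceeded 2-fold, against 12.7% of all genes. The median log2 change of the 8 was -0.03, against 0.01 for all genes. The myotube sum at day 0 lay between 1004 and 1090 FPKM in control cells, between 66.2 and 74.4 FPKM with the mutant and between 6.72 and 8.20 FPKM with NFIA. The sum of 4 myoblast genes lay between 513 and 523, between 351 and 361 and between 131 and 140 FPKM in the same order, and the part of these sums in the differences at day 0 was not tested. The largest log2 change was that of Acadl, which went from 65.5, 60.9 and 61.6 FPKM in control to 41.8, 44.3 and 42.8 FPKM, a log2 change of -0.53 ± 0.03 (limma adjusted p = 1.10e-07). Acads went from 42.3, 41.5 and 41.0 FPKM to 31.4, 30.6 and 31.8 FPKM, a log2 change of -0.40 ± 0.03 (limma adjusted p = 2.81e-07). Cpt1a had a log2 change of -0.37, and these 3 enzymes were thus lower with NFIA at day 0 and higher with it at day 7. The log2 change was 0.37 for Cpt2, 0.30 for Acadvl and 0.13 for Hadha.

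Acadm differed between the constructs at day 0 in another order than at day 7. It was at 79.0, 74.5 and 75.0 FPKM in control, at 71.8, 74.6 and 72.0 FPKM with NFIA and at 159, 156 and 157 FPKM with the Δpro#3 mutant. The mutant samples lay above all others, while control and NFIA samples overlapped. The log2 change of the mutant was 1.04 ± 0.03 against control (limma adjusted p = 5.04e-10) and 1.10 ± 0.03 against NFIA (limma adjusted p = 3.61e-10), and that of NFIA against control was -0.06 ± 0.03 (95% interval -0.13 to 0.00). It was the 1 enzyme of the 8 that exceeded 2-fold with the mutant at day 0, against 5.88% of all genes in either direction. The mutant's adipocyte sum at that time lay between 4.68 and 13.2 FPKM, against 15.6 to 16.6 FPKM with NFIA and 2.98 to 3.78 FPKM in control cells.

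Across the 8 at day 0, the mutant gave 4 higher (Acadm, Acadvl, Cpt2 and Hadha) and 3 lower (Acadl, Acads and Cpt1a) than control, where 62.2% of all genes differed in either direction (limma). The lower enzymes were at log2 changes of -0.44 for Acadl, -0.16 for Acads and -0.14 for Cpt1a. Against NFIA, 5 of the 8 were higher and 1, Cpt2, was lower, where 33.4% of all genes were higher and 31.9% lower (limma). Apart from Acadm, these differences lay between -0.15 and 0.24 on the log2 scale. That of Acadl, at 0.09, no longer passed under median-ratio scaling, without a variance trend, with the replicate number as a block or in 5 of 9 fits that left out 1 sample (limma adjusted p = 0.0561 to 0.119). Hadhb, at 0.11 against both control and NFIA, did not pass, but passed in some alternatives. Against control these were limma voom (adjusted p = 0.0333) and the fit without replicate 1 of the control samples, where its log2 change was 0.16 (limma adjusted p = 0.00897). Against NFIA they were limma voom, only the groups compared and 3 of 9 fits that left out 1 sample (limma adjusted p = 0.0227 to 0.0400).

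Between day 0 and day 7, control cells changed the enzymes in both directions. Of the 8, 4 rose (Acadvl, Acadl, Hadha and Hadhb) and 3 fell (Cpt1a, Acadm and Acads), where 36% of the 12408 genes tested rose and 42.7% fell (limma). Hadhb went from 28.3 to 45.3 FPKM on average and Acadvl from 48.9 to 79.3 FPKM, log2 changes of 0.66 and 0.68. Acads fell by 1.15 ± 0.06 on the log2 scale (limma adjusted p = 1.18e-11), Cpt1a by 1.03 ± 0.07 and Acadm by 0.84 ± 0.07. For these 3 the samples of day 0 and day 7 did not overlap, as for 44.3% of all genes with day 7 lower. Cpt2, at a log2 change of 0.04 (95% interval -0.07 to 0.15), did not pass.

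NFIA-expressing cells raised all 8 over the same days, where 33.2% of all genes rose (limma), and 6 of the 8 by more than 2-fold, against 9.66% of all genes. Median-ratio scaling moved the median of all genes from -0.11 to 0.01 with NFIA and from -0.11 to -0.01 with the mutant over these days. The shares of all genes that rose and fell with NFIA went from 33.2% and 46.5% to 40.2% and 38.4% under it. Acadm rose by 2.39 ± 0.07 on the log2 scale, Cpt2 by 1.61, Hadhb by 1.51, Acadvl by 1.41, Acadl by 1.20 and Acads by 1.14. Cpt1a rose by 0.40 and Hadha by 0.66. The difference of the change from that of control cells passed for all 8 (limma interaction, where 31.1% of all genes passed upwards), from 0.43 ± 0.07 for Hadha to 3.23 ± 0.10 for Acadm. The median of this difference was 1.20 over the 8, against -0.08 over all genes.

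The marker genes changed over the same days in every construct. All 10 myotube genes rose, with median log2 changes of 3.67 in control cells, 6.27 with NFIA and 7.31 with the mutant (limma). Of 7 adipocyte genes, 4 rose in control cells, 7 with NFIA and 7 with the mutant, with medians of 1.91, 7.56 and 3.80. Their part in the changes of the enzymes was not tested.

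With the Δpro#3 mutant the signs of the change followed those of control cells: Acadvl, Acadl, Hadha and Hadhb rose, and Cpt1a, Acadm and Acads fell. Cpt2 also rose, by 0.22, so that 5 rose and 3 fell, where 32.8% of all genes rose and 46.7% fell (limma), or 38.6% and 40.1% under median-ratio scaling. Acadm fell by 0.99 ± 0.07 on the log2 scale from a day 0 level above that of control cells, with group means of 157 and 79.4 FPKM. The change differed from that of control cells for 4 enzymes, all upwards (Acads by 0.66, Cpt1a by 0.44, Hadhb by 0.28 and Acadl by 0.27; limma interaction, where 18.9% of all genes passed upwards and 25.9% downwards, or 23.1% and 20% under median-ratio scaling). Under that scaling 5 enzymes passed upwards, with Cpt2 gained at 0.24 (limma adjusted p = 0.0170), and Cpt2 also passed without replicate 2 of the day 7 control samples or replicate 3 of the day 7 mutant samples (limma adjusted p = 0.0258 and 0.0324). For Acadm the difference was -0.15 (95% interval -0.37 to 0.07). Without replicate 1 of the day 7 mutant samples, 4 differences passed upwards and 3 downwards: Acadvl at -0.16, Acadm at -0.25 and Hadha at -0.18. The rise of Hadha with the mutant, 0.11 on the log2 scale, then became 0.05 and no longer passed, as in 9 of 18 fits that left out 1 sample and without a variance trend or with only the groups compared. The difference of Hadhb was lost without replicate 1 of the control samples of day 0 or of day 7 (limma adjusted p = 0.0542 and 0.0539). Without that replicate of day 0, the difference of Hadha passed downwards, at -0.17 (limma adjusted p = 0.0413).

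**Figure D3:**
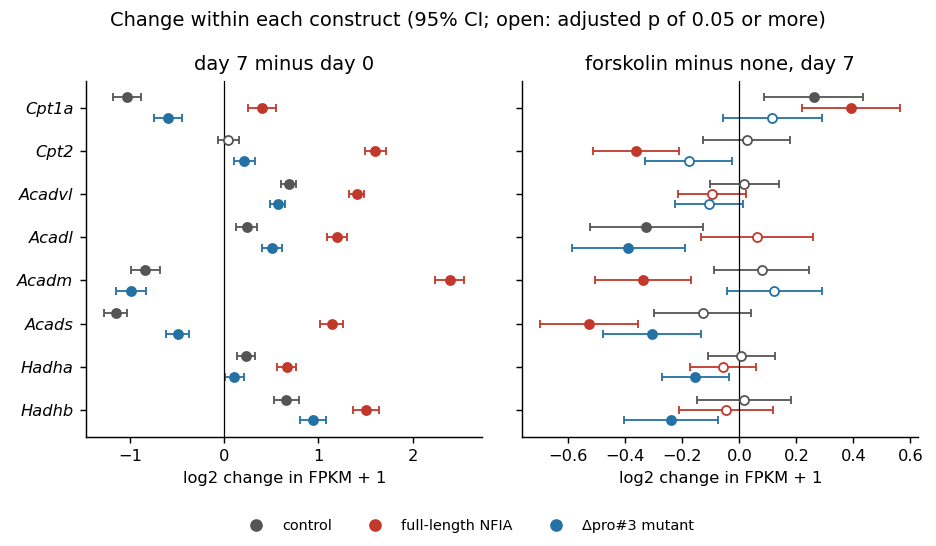
log2 change in FPKM + 1 (horizontal axes) of the 8 tested enzymes within each construct, from day 0 to day 7 on the left and after forskolin at day 7 on the right, with 95% confidence intervals from limma and open points where the adjusted p was 0.05 or more. On the left, Cpt1a, Acadm and Acads are below 0 in control and mutant cells and above 0 with NFIA, and on the right all changes lie between -0.53 and 0.39.

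After 4 h of forskolin, NFIA gave higher values of all 8 enzymes than control, where 25.5% of the 12121 genes tested were higher and 47% lower (limma), with a median log2 change of 1.05 against -0.17 for all genes. Acadm was at 45.2, 45.5 and 43.3 FPKM in control and at 310.1, 291 and 316 FPKM with NFIA, a log2 change of 2.75 ± 0.05 (limma adjusted p = 2.18e-11). Scaling each sample by its median ratio moved that median of all genes to -0.02, after which 33.5% of all genes were higher and 36% lower, and all 8 enzymes were higher under that scaling too. In the same comparison 7 of 7 adipocyte genes were higher and 10 of 10 myotube genes lower, with median log2 changes of 5.89 and -2.88. The adipocyte sum was 119 to 153 FPKM in control and 11541 to 12364 FPKM with NFIA, and the myotube sum 11581 to 13660 and 1587 to 1919 FPKM. The mutant's myotube sum was 11308 to 12437 FPKM, 1 of the 7 adipocyte genes was higher with it than in control (median 0.42), and all 7 were lower with it than with NFIA (median -5.46). Without replicate 1 of the mutant, 1 of the 7 was still higher than in control, but the median fell to 0.04, against -0.04 for all genes. All 7 were still lower than with NFIA (median -5.92). The part of these markers in the enzyme differences was not tested. The mutant gave 3 of the 8 higher than control (Acadm, Acads and Acadvl, at 0.93, 0.32 and 0.20 on the log2 scale) and none lower, where 19.5% of all genes were higher and 27.1% lower (limma). Under the same scaling 5 were higher, with Cpt1a at 0.19 and Cpt2 at 0.24. Without replicate 1 of the mutant, Acadm (0.96) and Acads (0.31) were higher and Acadl (-0.38) was lower, and Acadvl, at 0.16, no longer passed (limma adjusted p = 0.0895). Acadvl was also lost without any 1 of the control samples or replicate 3 of the mutant (limma adjusted p = 0.0539 to 0.102), and with the replicate number as a block 4 were higher and 1 lower, with Cpt2 gained at 0.19 and Acadl at -0.24 (limma adjusted p = 0.0307 and 0.0452). Against NFIA the mutant gave all 8 lower, where 24.2% of all genes were lower and 42% higher (limma), or 30.7% and 32.4% under that scaling, which moved the median of all genes from 0.12 to 0.02. The differences ran from -0.59 for Hadha to -1.82 for Acadm on the log2 scale, and all 8 were lower without replicate 1 of the mutant too.

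The response to forskolin itself was small, and no enzyme changed by more than 2-fold in any construct, like most genes. Of all genes, 1.3% were called at over 2-fold in control cells, 3.21% with NFIA and 2.15% with the mutant (limma). In control cells 2 of the 8 changed, where 20.5% of the 12245 genes tested did (limma, 7.05% up and 13.5% down, or 8.65% and 8.98% under median-ratio scaling): Cpt1a rose from 15.6 to 18.8 FPKM on average, by 0.26 ± 0.08 on the log2 scale, and Acadl fell from 74.2 to 58.9 FPKM, by 0.33 ± 0.09. Neither call held in every fit without 1 control sample. Without replicate 1 or 3 of the day 7 control samples, or replicate 3 of the forskolin control samples, 0 of the 8 passed, and without replicate 1 or 2 of the forskolin control samples 1 did, so these calls depended on single libraries. Under median-ratio scaling Acadl, at -0.28, no longer passed (limma adjusted p = 0.0581), and Cpt1a did. Without the filter on low values Cpt1a no longer passed (limma adjusted p = 0.0503).

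With NFIA, Cpt1a was also higher after forskolin, at 42.4, 42.6 and 47.9 FPKM against 32.5, 34.2 and 33.7 FPKM before, a log2 change of 0.39 ± 0.08 (limma adjusted p = 0.000691). Cpt2, Acadm and Acads fell after forskolin, by 0.36, 0.34 and 0.53 on the log2 scale, where 13.9% of all genes rose and 41.5% fell (limma). With 1 of the 8 higher and 3 lower, the enzymes were near those shares. Cpt2, Acadm and Acads were also raised most by NFIA at day 7, and the same NFIA samples of day 7 are the baseline here. The myotube sum went from between 1865 and 2544 to between 1587 and 1919 FPKM, and the adipocyte sum from between 12625 and 14018 to between 11541 and 12364 FPKM. The myoblast sum went from between 224 and 286 to between 171 and 209 FPKM. The part of these sums was not tested. Acads went from 75.2, 67.3 and 68.6 FPKM to 55.1, 45.0 and 45.8 FPKM, with no overlap. The median of all genes was -0.15 in this comparison, and scaling moved it to -0.05, after which 21.5% of all genes rose and 29.3% fell. Under that scaling the falls of Cpt2, Acadm and Acads were -0.24, -0.21 and -0.40 and still passed, whereas Acadvl, Hadha and Hadhb, which did not pass, changed sign. When replicate 1 of the NFIA forskolin samples was left out of the unscaled fit, Acadvl was called as well, at -0.15 in place of -0.10 (limma adjusted p = 0.0243), so that 5 enzymes changed in place of 4.

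The forskolin response differed between NFIA-expressing and control cells for 4 of the 8 (limma interaction, where 30.6% of all genes differed, 9.16% up and 21.5% down, or 12.3% and 15.4% under median-ratio scaling): Acadm by -0.42 ± 0.11, Acads by -0.40 ± 0.11, Cpt2 by -0.39 ± 0.10 and Acadl by 0.39 ± 0.13 on the log2 scale. Under that scaling Acads, at -0.32, did not pass (limma adjusted p = 0.0505). Acadl did not pass without the filter on low values (limma adjusted p = 0.0581) or in 10 of 18 fits that left out 1 sample (limma adjusted p = 0.0520 to 0.0751). In Δpro#3-expressing cells 4 enzymes fell (Acadl by 0.39, Acads by 0.31, Hadhb by 0.24 and Hadha by 0.15), where 23.9% of all genes fell and 11.9% rose (limma), or 19.2% and 14.7% under median-ratio scaling. In the same comparison 7 of 7 tested adipocyte genes fell, 6 of them by over 2-fold, with a median log2 change of -1.58 against -0.06 for all genes (limma). The adipocyte sum went from between 347 and 1653 FPKM to between 119 and 438 FPKM, with overlapping samples, and its part in the falls of the enzymes was not tested. Without replicate 1 of the mutant at both times, an alternative chosen after seeing the data, all 7 adipocyte genes still fell, with a median of -1.37, and 3 of the 8 enzymes fell and 1 rose (limma). Of the same 7 genes, 2 fell with NFIA (median -0.32), and their median log2 change in control cells was -0.18. Without replicate 2 or replicate 3 of the mutant's forskolin samples, and under that scaling, Acadl and Acads alone passed. When replicate 1 of the forskolin samples was left out, 5 fell, with Cpt2 at -0.22 (limma adjusted p = 0.0417) and Acadl at -0.53. Same-numbered samples of these groups correlated in their deviations, and with the number as a block 5 fell, Cpt2 among them at -0.18 (limma adjusted p = 0.0420). With that block and only these 6 samples, a fit chosen after seeing the data, 3 fell and Hadha no longer passed (limma adjusted p = 0.0632). Without replicate 1 of the mutant's day 7 samples, Acadl and Acads fell and Acadm rose, by 0.22. Its response differed from that of control cells for 0 of the 8 by limma at an adjusted p under 0.05, against 4.97% of all genes, for 1 at an unadjusted p under 0.05 and for 0 by limma voom on fragments. Without replicate 1 of the mutant's forskolin samples it differed for 1, Hadhb, at -0.34 (limma adjusted p = 0.0476).

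The genes of neighbouring steps at day 7 were described by lists of pathway genes, each with its count past the limma threshold and its median log2 change, against a median of -0.08 over all genes, of which 31.3% were higher and 41.1% lower. The other matrix enzymes of the spiral were higher with NFIA in 7 of 7 cases, with a median log2 change of 1.16, led by the enoyl-CoA hydratase Echs1 (38.2 to 161 FPKM), the hydroxyacyl-CoA dehydrogenase Hadh (43.2 to 132 FPKM) and the thiolase Acaa2 (57.4 to 151 FPKM). The auxiliary enzymes for unsaturated fatty acids were higher in 3 of 3, with a median of 1.33, with Decr1, the dienoyl-CoA reductase, at 15.1 and 52.0 FPKM, and the isomerases Eci1 and Eci2 at log2 changes of 1.33 and 1.31. The electron transfer genes Etfa, Etfb and Etfdh, which pass electrons from the dehydrogenases to ubiquinone, were higher in 3 of 3, with a median of 0.70 and log2 changes of 0.70, 1.02 and 0.61.

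Fatty acid activation and carnitine supply gave a mixed picture. Of 9 genes for activation and carnitine supply, 5 were higher and 3 lower: Acsl1, the acyl-CoA synthetase of adipocytes, went from 31.3 to 216 FPKM, and Acsl6 from 15.8 to 1.77 FPKM. Carnitine acetyltransferase, Crat, went from 20.2 to 65.8 FPKM, and the median of this list was 0.37. The carnitine-acylcarnitine translocase Slc25a20, the step between Cpt1a and Cpt2, went from 13.1 to 24.4 FPKM, a log2 change of 0.85. Of 11 genes for peroxisomal beta-oxidation, 8 were higher and 2 lower, with a median of 0.63. The sterol carrier protein and thiolase Scp2 went from 50.5 to 232 FPKM and the thiolase Acaa1b from 1.75 to 53.6 FPKM. All 3 genes that set malonyl-CoA, the inhibitor of CPT1, were higher: Acaca and Acacb, which make it, went from 7.91 to 32.4 and from 0.570 to 7.23 FPKM, and Mlycd, which removes it, from 9.82 to 22.2 FPKM.

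The regulators tested were higher in 6 of 6, with a median of 0.99, led by Pparg (5.95 to 39.5 FPKM), the coactivator Ppargc1a (1.08 to 4.23 FPKM) and Rxra (12.0 to 31.2 FPKM), while Ppara, the PPAR receptor of liver, was at 0.648 FPKM with NFIA and too low to be tested. Of 11 other known PPAR targets, 9 were higher and 1 lower, with a median of 2.18, and the lipoprotein lipase inhibitor Angptl4 went from 11.9 to 412 FPKM, the mitochondrial carrier Ucp2 from 16.1 to 338 FPKM and the lipid droplet protein Plin2 from 88.9 to 987 FPKM. Of 16 citrate cycle genes, 13 were higher and 2 lower, with a median of 0.47, led by citrate synthase Cs (156 to 426 FPKM) and the succinyl-CoA ligase subunits Suclg1 (95.9 to 251 FPKM) and Suclg2 (7.43 to 19.5 FPKM). With the Δpro#3 mutant at day 7, the matrix enzymes were higher in 4 of 7 (median 0.15), the regulators in 1 of 6 with 1 lower (median 0.04) and the other PPAR targets in 7 of 11 with 2 lower (median 0.50), against -0.04 for all genes, of which 21.3% were higher and 27.5% lower. Higher and lower counts were 2 and 2 of 9 for activation and carnitine supply (median 0.12), 2 and 0 of 3 for the auxiliary enzymes (0.51), 2 and 0 of 3 for electron transfer (0.26), 3 and 3 of 11 for peroxisomal beta-oxidation (0.06), 1 and 0 of 3 for malonyl-CoA (0.17) and 6 and 1 of 16 for the citrate cycle (0.11). With replicate 1 of the mutant left out, an alternative chosen after seeing the data, the counts were 4 and 1 of 7 for the matrix enzymes (median 0.14), 1 and 1 of 6 for the regulators (0.02), 5 and 3 of 11 for the other PPAR targets (0.30) and 2 and 1 of 9 for activation and carnitine supply (0.04). They were 2 and 0 of 3 for the auxiliary enzymes (0.49), 2 and 0 of 3 for electron transfer (0.23), 3 and 2 of 11 for peroxisomal beta-oxidation (-0.04), 1 and 0 of 3 for malonyl-CoA (0.06) and 6 and 1 of 16 for the citrate cycle (0.09). Acacb was at 4.14, 2.37 and 2.32 FPKM with the mutant, above control in all 3 samples and highest in replicate 1. Angptl4 was at 63.9, 48.0 and 43.1 FPKM, likewise above control and highest in replicate 1.

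**Figure D4:**
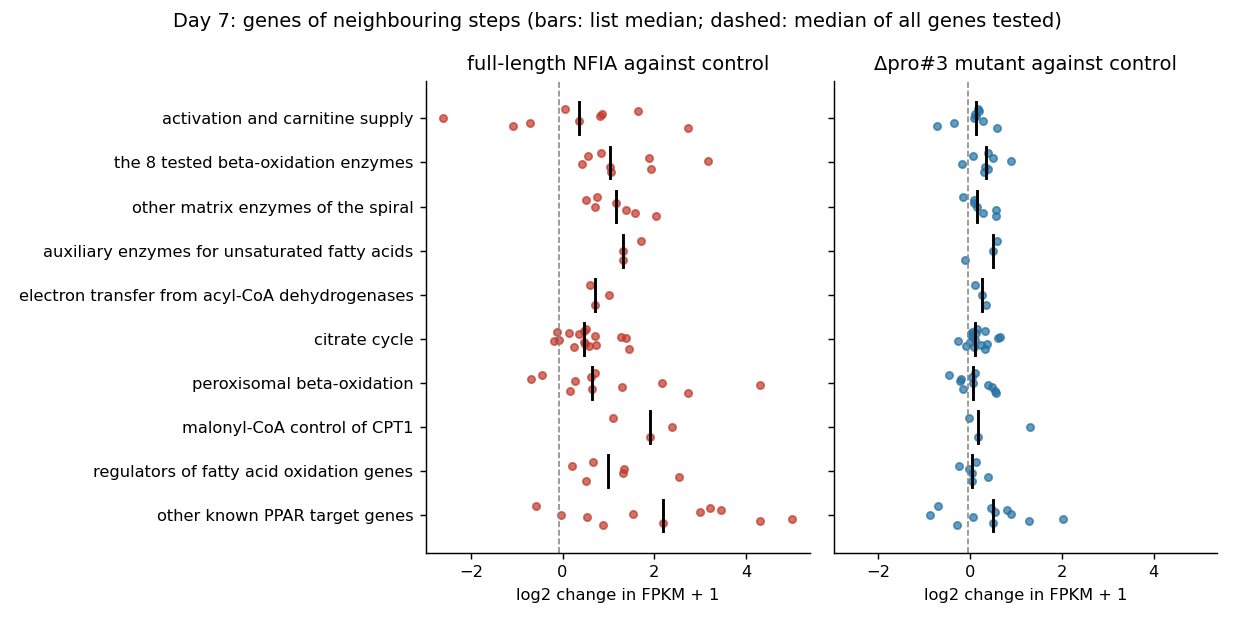
log2 change in FPKM + 1 against control cells at day 7 (horizontal axes) for the 8 tested enzymes and each tested gene of 9 lists of neighbouring steps, with full-length NFIA on the left and the Δpro#3 mutant on the right, where black bars are list medians and the dashed line is the median of all genes tested. With NFIA the medians of the 9 lists run from 0.37 for activation and carnitine supply to 2.18 for other known PPAR target genes, and with the mutant from 0.04 to 0.51.

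Over all 9 groups, Acadm had the widest range of group means of the 8, from 42.3 to 387 FPKM (9.16-fold), followed by Acads (4.25-fold) and Cpt2 (4.12-fold), and Hadha the narrowest, from 50.2 to 87.9 FPKM (1.75-fold). The order of Acadm was NFIA at day 7, NFIA with forskolin and the mutant at day 0, each apart from the next. The mutant with forskolin, the mutant at day 7, control at day 0 and NFIA at day 0 followed with overlapping samples between neighbours, and control cells at day 7, with and without forskolin, were the lowest and overlapped. For Acads no neighbours in the order of the 9 groups overlapped, and for Hadha 6 of 8 neighbour pairs did.

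As a description over the 9 group means of log2(FPKM + 1), which share constructs and time points, the genes most like Cpt2 among 6435 compared were Lipe, Ppp1r1b and Vit (Pearson r = 0.994 each). Those most like Acadvl were Alas1, Amy1 and Gpd1 (0.992 to 0.995), and most like Hadhb were Prkab2, Ucp3 and Suclg1 (0.989 to 0.995). Those most like Hadha were Aldh6a1, Fam13a and Mfn2 (0.983 to 0.985), most like Acads were Iqsec1, Cttn and Nipsnap1 (0.977 to 0.983), and most like Acadm were Tst, Sh3glb2 and Pla2g2e (0.968 to 0.970). Acadl was most like Cdip1, Atf5 and Laptm4b (0.956 to 0.980), and Cpt1a like Gak, Sema4b and Pitpnm1 (0.936 to 0.960). Between the enzymes themselves, the closest pair was Acadvl and Hadhb (0.972).

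Cpt1b, the muscle isoform of the outer membrane transferase, was nearly without fragments. Its 27 samples held 0 to 12 fragments each, 118 in all, and its highest group mean was 0.162 FPKM, although the control and mutant cells of day 7 carried myotube genes at high levels. At day 7 it was at 0.0454, 0.0616 and 0.0295 FPKM in control, from 6 fragments in all, and at 0.144, 0.101 and 0.242 FPKM with NFIA, from 18 fragments. These samples did not overlap, and the gene lay below the filter of the tests. Its value is uncertain: the annotated gene, at chr15:89246836-89256294 of NCBIM37, lies within the span of Chkb, the choline kinase gene on the same strand, which shares 81.4% of its exon bases, and Chkb was also near 0, at 0.308 FPKM or below. Gene counts by STAR assign fragments that fall in both genes to neither, and its part in the low values was not tested. The ratio of Cpt1b to Cpt1a was therefore not read as a shift between isoforms, and with 3 samples against 3 its exact permutation test could not go below p = 0.1.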

How the data were processed

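Polyadenylated RNA of 27 C2C12 samples was measured. The authors aligned stranded reads to mm9 with STAR 2.5.3a (per the labels' processing notes), kept those that mapped uniquely and deposited the values as FPKM from matched-strand gene counts. Fragments were worked back from the deposited FPKM (100% of values whole, tolerance 0.01). Groups came from the sample titles.

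Levels were compared on log2(FPKM + 1) with limma 3.58.1 in R 4.3.3, with a variance trend, keeping genes whose mean over the fitted samples reached 0.5 FPKM. Each fit held the 9 samples of a time point, or the 18 samples of a pair of time points or of day 7 with and without forskolin. Tests were 2-sided, with Benjamini-Hochberg adjustment over all genes tested, and an adjusted p under 0.05 was called. Fold thresholds are in FPKM + 1, a scale that understates changes of low genes. Positions came from GENCODE vM1 (NCBIM37) and promoters from RefSeq (GRCm38.p6).

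The enzymes and gene lists were chosen with earlier results of these data known. All 9 enzymes are named, and of each list the 3 largest changes with NFIA at day 7 or a defined step. A gene of the peroxisomal list is not reported here by name. Alternatives were a pseudocount of 0.1, median-ratio scaling, no filter, a minimum mean FPKM of 5, no variance trend, only the groups compared, a replicate block, limma voom on fragments, and leaving out each sample. Deviations from the group mean correlated between same-numbered mutant samples of day 7 without and with forskolin (0.355, 0.143 and 0.103), so blocked values are given beside that comparison, although 2 of its 6 pairs of different numbers correlated at 0.119 and 0.242 and the labels name no shared culture. The steps were tested on simulated data.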

Additional observations from a re-analysis of the deposited data

Results flagged for a closer look

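Differences in the change from day 0 to day 7 between NFIA-expressing and control cells passed the interaction test (limma, Benjamini-Hochberg adjusted) for all 8 tested enzymes: 3.23 for Acadm, 2.30 for Acads, 1.56 for Cpt2, 1.43 for Cpt1a, 0.96 for Acadl, 0.84 for Hadhb, 0.72 for Acadvl and 0.43 for Hadha on the log2 scale. The corresponding differences between Δpro#3-expressing and control cells passed for Acads at 0.66, Cpt1a at 0.44, Hadhb at 0.28 and Acadl at 0.27. Of these, that of Hadhb was lost without replicate 1 of the control samples of day 0 or of day 7 (limma adjusted p = 0.0542 and 0.0539), and without replicate 1 of the day 7 mutant samples Acadvl, Acadm and Hadha passed as well, downwards at -0.16, -0.25 and -0.18. Hadha also passed downwards, at -0.17, without replicate 1 of the day 0 control samples (limma adjusted p = 0.0413). Cpt2 passed at 0.24 under median-ratio scaling. For the forskolin response, the differences between NFIA-expressing and control cells passed for Acadm at -0.42, Acads at -0.40, Cpt2 at -0.39 and Acadl at 0.39. Of these, that of Acads was lost under median-ratio scaling (limma adjusted p = 0.0505), and that of Acadl without the filter on low values (limma adjusted p = 0.0581) and in 10 of 18 fits that left out 1 sample. The control samples are shared between these comparisons.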

How the results depend on the processing

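The comparisons of NFIA with control and with the mutant at day 7 and after forskolin, and the change with NFIA from day 0 to day 7, called all 8 tested enzymes in one direction under every alternative, including leaving out each sample. Without the filter on low values, Cpt1b joined them in the comparisons between constructs at both times. Of 3312 refitted values of single enzymes in all comparisons, 75 lost a call, 30 gained one and 20 changed sign, none of the last called. The counts of called enzymes that moved by over 1.5 times were those of small differences. For the mutant against control after forskolin (3 enzymes), median-ratio scaling gave 5. For forskolin in control cells (2 enzymes), scaling gave 1 and no filter on low values gave 1. For forskolin with the mutant (4 enzymes), scaling gave 2 and fitting only the groups compared gave 1. The fall of Acadl with the mutant at day 7 did not pass under scaling, without a filter, without a variance trend or with only the groups compared (limma adjusted p = 0.158, 0.0586, 0.0649 and 0.0811).

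Between constructs, deviations from the group mean correlated at -0.173 to 0.131 for samples of the same replicate number. Within a construct they correlated at -0.0534 to 0.104 between day 0 and day 7. Between day 7 and forskolin the values were -0.156 to 0.148 in control and NFIA-expressing cells. Pairs of different numbers within a construct reached 0.275 between day 7 and forskolin, so these values cannot show whether the numbers paired samples. With the replicate number as a block, 5 enzymes were called for the mutant against control after forskolin, and no other count of called enzymes moved by over 1.5 times. With the mutant before and after forskolin, where every pair of the same number correlated at over 0.1, the block gave 5 enzymes in place of 4.

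Leaving out 1 sample at a time, the number of enzymes whose change from day 0 to day 7 differed between mutant and control ranged from 3 to 7 (7 without mutant day 7 replicate 1). For forskolin in control cells it ranged from 0 to 2, for forskolin with the mutant from 2 to 5, and for the difference of the latter from control from 0 to 1 (1 without mutant forskolin replicate 1). Uncalled values that changed sign in these fits ranged from -0.047 to 0.045 (Hadhb, NFIA against control, day 0) and from -0.0011 to 0.071 (Cpt2, day 7 against day 0 in control). For forskolin in control cells they ranged from -0.017 to 0.089 (Cpt2), -0.0045 to 0.040 (Acadvl), -0.015 to 0.030 (Hadha) and -0.035 to 0.045 (Hadhb). For Hadhb with NFIA they ranged from -0.084 to 0.015, and against control from -0.099 to 0.00023. For the mutant against control they ranged from -0.21 to 0.029 (Acadl) and from -0.058 to 0.14 (Acadm). Under scaling, the forskolin changes with NFIA became 0.032 for Acadvl, 0.070 for Hadha and 0.080 for Hadhb, and their differences from control 0.015 for Hadha and 0.018 for Hadhb. With a pseudocount of 0.1, the log2 ratio of Cpt1b to Cpt1a, which rests on 118 fragments of Cpt1b, went from 0.59 to -0.22 for the mutant against NFIA at day 7 and from 0.47 to -0.13 for the mutant from day 0 to day 7. The cause of these changes was not tested.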
